A study of Homo sapiens with 6 samples.

Results

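PPP1R10 encodes PNUTS, the nuclear scaffold of protein phosphatase 1 (PP1), and this account follows its transcript and those of 8 genes that act with it at the ends of genes transcribed by RNA polymerase II. The 9 genes are PPP1R10, the PP1 catalytic subunits PPP1CA, PPP1CB and PPP1CC, the complex partners WDR82 and TOX4, the exonuclease gene XRN2, and SUPT5H and SUPT4H1, which encode SPT5 and SPT4. They were taken as all 19 probe sets annotated to one of these symbols, of 54613 probe sets that are no controls, and none of the 19 listed a second symbol. PPP1R10 was picked because it was among the genes lowered by the treatment, so its difference between the groups is given here as a description and supports nothing, and the same holds for the other 8 genes, which were picked for their link to it.

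All RNA was from MOLM-14, an established cell line grown out of a human acute myeloid leukaemia with the MLL-AF9 fusion. The treated group had 25 nM cortistatin A (CA) for 3 h, a compound that blocks CDK8 and CDK19, the kinases of the Mediator complex; the control group had the solvent DMSO alone for 3 h. There were 3 samples a group, each hybridised to an Affymetrix U133 Plus 2.0 array. Since the labels name triplicate wells but no separate cultures or days, every interval and p-value measures how far these samples spread, and that spread may be technical.

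PNUTS holds PP1 in the nucleus and, together with WDR82 and TOX4, places it on transcribing polymerase. When the polymerase has passed a polyadenylation site, PP1 removes phosphates from SPT5, the polymerase slows, and the exonuclease XRN2, which degrades the RNA left behind the cleavage site, can catch up with it. The kinase CDK9 of P-TEFb puts phosphates on SPT5 earlier in the gene.

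The start regions of 4 genes are shown because their transcripts differed in how they behaved: PPP1R10, which was lower in CA; MRPS18B, its head-to-head neighbour, which gave no call; the member SUPT5H, which was nearly equal in both groups; and HEXIM1, the single gene of the wider pathway that passed the test. Each line holds the 250 bases before the annotated start in RefSeq, read in the direction of the gene, and capitals mark 4 motifs found on either strand: TATAAA, which binds the general factor TBP in many promoters; the short box CCAAT, which binds the factor NF-Y; TCTCGCGA; and the palindrome TGACGTCA, which binds CREB family factors.
PPP1R10, GRCh38.p14 chr6:30617244-30617493, minus strand: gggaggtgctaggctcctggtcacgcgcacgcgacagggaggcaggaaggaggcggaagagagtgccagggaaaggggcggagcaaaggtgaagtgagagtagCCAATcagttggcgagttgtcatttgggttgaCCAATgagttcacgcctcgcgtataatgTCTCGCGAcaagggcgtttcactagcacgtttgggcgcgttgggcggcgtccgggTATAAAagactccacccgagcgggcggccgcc
MRPS18B, GRCh38.p14 chr6:30617590-30617839, plus strand: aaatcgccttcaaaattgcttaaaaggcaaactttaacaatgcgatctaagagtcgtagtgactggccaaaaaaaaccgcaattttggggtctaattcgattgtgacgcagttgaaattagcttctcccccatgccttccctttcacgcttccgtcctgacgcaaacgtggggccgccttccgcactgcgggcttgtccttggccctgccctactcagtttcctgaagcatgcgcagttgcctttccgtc
SUPT5H, GRCh38.p14 chr19:39445332-39445581, plus strand: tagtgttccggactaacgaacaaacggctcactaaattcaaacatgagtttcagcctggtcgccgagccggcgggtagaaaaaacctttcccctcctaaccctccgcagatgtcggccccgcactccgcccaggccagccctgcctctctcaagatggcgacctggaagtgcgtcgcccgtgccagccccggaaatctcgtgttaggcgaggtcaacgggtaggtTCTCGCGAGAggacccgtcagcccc
HEXIM1, GRCh38.p14 chr17:45148225-45148474, plus strand: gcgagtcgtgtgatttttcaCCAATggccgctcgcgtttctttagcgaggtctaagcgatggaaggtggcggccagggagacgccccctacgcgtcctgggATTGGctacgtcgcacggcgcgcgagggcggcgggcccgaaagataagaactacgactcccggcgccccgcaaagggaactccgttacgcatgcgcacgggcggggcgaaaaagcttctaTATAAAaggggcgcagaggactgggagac

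The PPP1R10 window held a TATAAA match that began 32 bases before the start, CCAAT matches that began 147 and 115 bases before it, and 1 TCTCGCGA match that began 87 bases before it. Of 8 members with a window in the table, it was the 1 with TATAAA; PPP1CA is the member without a window. TATAAA stood in 11.2% of 27305 gene starts of this length and, on the strand of the gene between 40 and 20 bases before the start, in 2.50%. HEXIM1 also held TATAAA, 29 bases before its start, and 2 CCAAT matches, and CCAAT stood in 33.1% of all windows. The transcripts of TXNIP, SERTAD1, BEND5 and INTS6 were also lower in CA, though limma did not call BEND5 and INTS6 in the gene fit. The windows of these genes were searched too. TATAAA stood in none of them, while CCAAT stood in those of TXNIP, SERTAD1 and BEND5 but not of INTS6. Whether any motif goes with a lower transcript was not tested. TCTCGCGA, found in 1.07% of all windows, was shared by PPP1R10 and SUPT5H, where matches on the 2 strands overlapped. TGACGTCA, found in 1.75%, stood in WDR82 and XRN2. A further 2 motifs were searched and are not marked: GGGCGG stood in 6 of the 8 windows against 42.2% of all, and CCGGAAGT in 1, that of SUPT4H1, against 3.64%. The MRPS18B window held none of the 6 motifs. The motifs were chosen with the sequences in view, and a match is a string of letters, not a known binding site.

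Array medians lay between 5.03 and 5.08 on the log2 scale, and arrays correlated with each other at 0.996 to 0.998 over all probe sets. The array of CA replicate 3 stood apart, at 19.7 on the first principal component against -8.25 to 0.73 for the other 5. All 10 myeloid leukaemia markers that were measured, among them MPO and LYZ, had means above the array medians. The lowest of these means, at 5.08, was level with the highest array median. Means also lay above for 4 of 5 erythroid and megakaryocyte, 3 of 6 lymphocyte and 3 of 7 epithelial and fibroblast markers. No detection calls were analysed here, so a low level cannot be told from absence. In such bulk RNA, fewer cells with a transcript and less of it per cell cannot be told apart, and the normalisation used removes any change shared by all genes.

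PPP1R10 was measured by 2 probe sets and was lower in CA at both. At 201703_s_at the log2 values were 7.39, 7.43 and 7.54 in CA, against 7.94, 7.86 and 7.87 in DMSO. At 201702_s_at they were 6.74, 6.83 and 6.88 in CA, against 7.13, 7.10 and 7.21 in DMSO. All 3 CA arrays lay below all 3 DMSO arrays at each probe set, with a gap of 0.32 and 0.22 log2 units between the nearest arrays, which is wider than the range within either group.

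The mean of 201703_s_at was 7.45 ± 0.080 in CA and 7.89 ± 0.047 in DMSO (SD, n = 3 each), a log2 change of -0.44 with a 95% interval of -0.59 to -0.29, or 0.738-fold. The mean of 201702_s_at was 6.82 ± 0.072 in CA and 7.15 ± 0.056 in DMSO, a log2 change of -0.33 (-0.48 to -0.18), or 0.796-fold. In CA, replicate 1 was lowest and replicate 3 highest at both probe sets, while in DMSO the order of the arrays differed between them. Leaving out any 1 array kept the log2 change of 201703_s_at between -0.48 and -0.41 and that of 201702_s_at between -0.36 and -0.29.

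The call depends on what is tested. With 1 probe set for each of 19775 genes, limma called 1 of the 9 members, PPP1R10, against 0.0556% of all genes called lower and 0.839% called higher; since PPP1R10 was picked from that result, the share says nothing about it. Over all probe sets limma called 0 of the 19, against 0.220% of all, with 2 of the 19, those of PPP1R10, at an unadjusted p under 0.05, against 8.62% of all. In the gene fit PPP1R10 passed without CA replicate 3 and did not pass without any other single array (CA replicates 1 and 2, DMSO replicates 1 to 3).

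**Figure D1:**
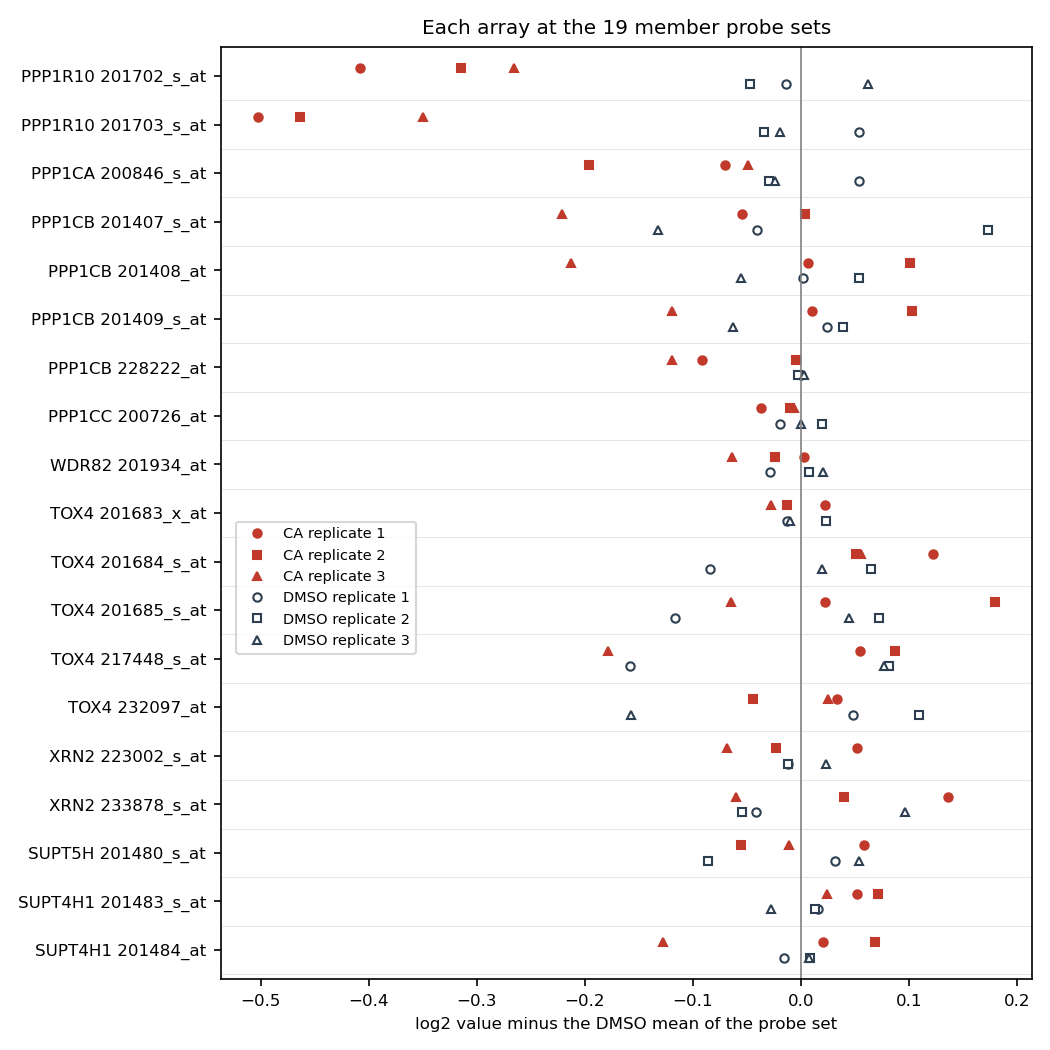
Log2 value of each array minus the DMSO mean of the same probe set, for the 19 probe sets of the 9 genes, with CA as filled red symbols above DMSO as open symbols and the shape giving the replicate. At both PPP1R10 probe sets the CA arrays lie left of all DMSO arrays, while at most other probe sets the groups overlap, and CA replicate 3 is the lowest array at 10 of the 19.

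Of the other 17 probe sets, log2 changes lay between -0.11 and 0.076 with a median of -0.013, where the median over all probe sets was -0.0011. All 17 intervals held 0, and together they spanned folds from 0.799, at 1 probe set of PPP1CB, to 1.19, at 1 of TOX4. The folds of PPP1R10 were 0.738 and 0.796. Its intervals, 0.664 to 0.820 at 201703_s_at and 0.717 to 0.884 at 201702_s_at, both overlapped that of the PPP1CB probe set. The interval at 201702_s_at also overlapped those of PPP1CA and of some other PPP1CB and TOX4 probe sets. Since PPP1R10 was picked for its fall, its distance from the 17 says nothing. How small a change each interval leaves out differs by probe set. In all, 14 of the 19 probe sets had a change below 0, against 50.4% of all probe sets. The groups did not overlap at 4 probe sets that were lower, those of PPP1R10, the probe set of PPP1CA and 1 of PPP1CB, and at 1 that was higher, of SUPT4H1, against 6.55% and 8.96% of all probe sets. CA replicate 3 was the lowest of the 6 arrays at 10 of the 17, and it was the highest at 0 of the 19. Its part in these differences was not tested beyond leaving it out, and without it the PPP1R10 changes were -0.48 and -0.36.

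**Figure D2:**
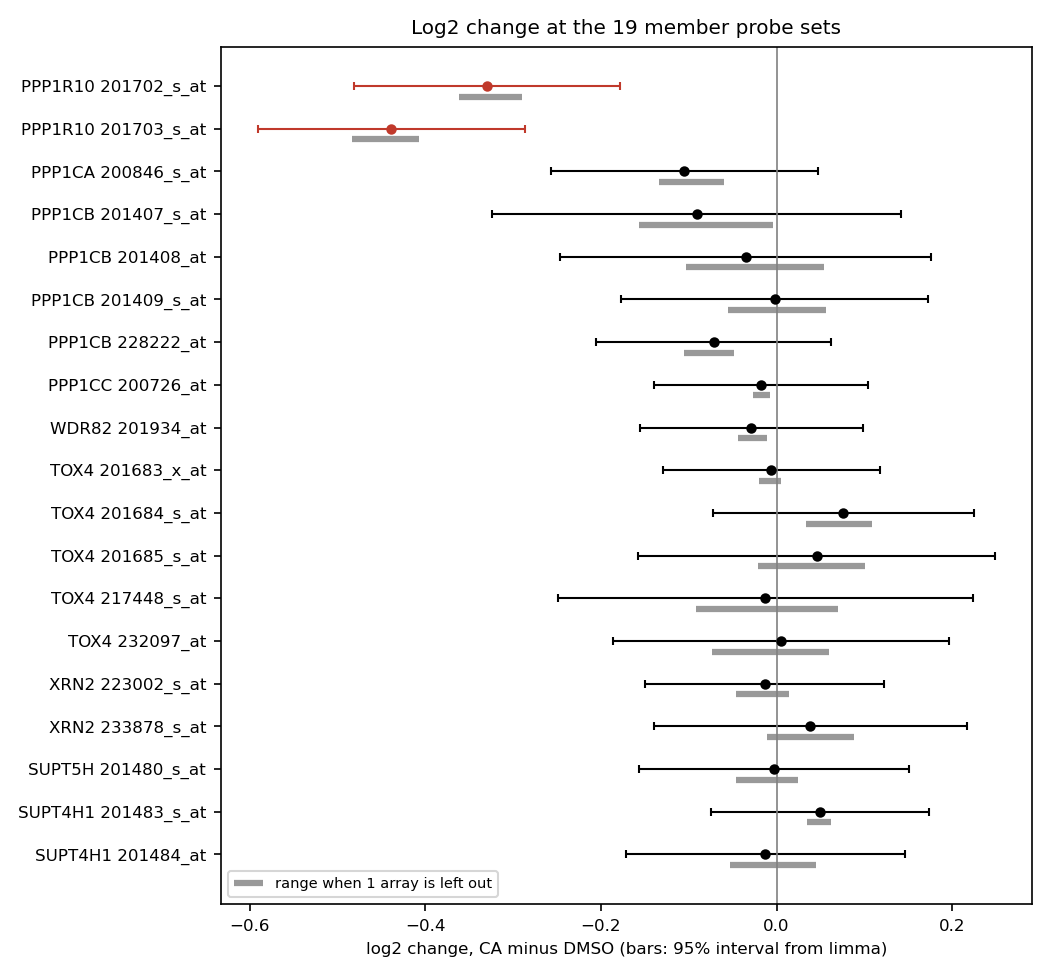
Log2 change, CA minus DMSO, at the 19 member probe sets, with points for the estimate, bars for the 95% interval from limma over all probe sets, and grey bands for the range of the estimate when 1 array is left out. The 2 PPP1R10 probe sets, in red, sit at -0.33 and -0.44, and every other interval crosses 0.

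PPP1CA encodes PP1 alpha, 1 of the 3 catalytic subunits that PNUTS can bind. Its probe set 200846_s_at read 10.24, 10.11 and 10.26 in CA, against 10.36, 10.28 and 10.28 in DMSO. The CA arrays were all lower, but the closest arrays of the groups were less far apart than the arrays within a group, and the log2 change was -0.11 (-0.26 to 0.047).

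PPP1CB encodes PP1 beta, which also works with myosin phosphatase targeting subunits in the cytoplasm. At 228222_at it read 10.72, 10.81 and 10.70 in CA, against 10.82, 10.81 and 10.82 in DMSO, so the DMSO arrays were nearly identical and CA replicate 2 was level with them. Its log2 change was -0.072 there and -0.091, -0.035 and -0.0023 at the other 3 probe sets, where the groups overlapped. CA replicate 3 was the lowest array at all 4 PPP1CB probe sets; without it the changes were -0.048, -0.026, 0.054 and 0.056, in the order 228222_at, 201407_s_at, 201408_at and 201409_s_at.

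PPP1CC encodes PP1 gamma, found at nucleoli and mitotic chromosomes. It read 13.06, 13.09 and 13.09 in CA, against 13.08, 13.12 and 13.10 in DMSO at 200726_at. The groups overlapped within a total range under 0.1 log2 units, and the log2 change was -0.018 (-0.14 to 0.10), or a fold between 0.908 and 1.07.

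WDR82 is a WD40 protein of the PNUTS complex that also belongs to the SET1 histone methyltransferase complexes. At 201934_at it read 11.91, 11.88 and 11.84 in CA, against 11.88, 11.92 and 11.93 in DMSO, overlapping groups with a log2 change of -0.029 (-0.16 to 0.098).

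TOX4, an HMG-box protein of the PNUTS complex, had 5 probe sets. At 201684_s_at, used for the gene, it read 8.80, 8.73 and 8.73 in CA, against 8.59, 8.74 and 8.70 in DMSO, a log2 change of 0.076 (-0.072 to 0.22). The groups overlapped at all 5, and the changes ran from -0.013 to 0.076. The probe set 217448_s_at was near the array median, with means of 5.21 ± 0.14 in CA and 5.22 ± 0.14 in DMSO (SD, n = 3 each), and had the largest SE of the 5.

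XRN2 is the nuclear 5′ to 3′ exonuclease of termination. It read 9.04, 8.96 and 8.92 in CA, against 8.97, 8.97 and 9.01 in DMSO at 223002_s_at, a log2 change of -0.014 (-0.15 to 0.12). Its second probe set, 233878_s_at, had a change of 0.038 (-0.14 to 0.22), so the 2 differed in sign within overlapping groups.

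SUPT5H encodes SPT5, the PP1 substrate and the larger partner of the elongation factor DSIF. At 201480_s_at it read 8.85, 8.74 and 8.78 in CA, against 8.83, 8.71 and 8.85 in DMSO. The means were 8.79 ± 0.057 in CA and 8.80 ± 0.075 in DMSO (SD, n = 3 each), a log2 change of -0.0031 (-0.16 to 0.15), the second smallest of the 19 in size.

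SUPT4H1 encodes SPT4, the small partner of SPT5. At 201483_s_at it read 10.34, 10.36 and 10.31 in CA, against 10.30, 10.30 and 10.26 in DMSO, so the CA arrays were all higher by a narrow margin, with a log2 change of 0.049 (-0.075 to 0.17). At 201484_at the groups overlapped and the change was -0.013 (-0.17 to 0.15).

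The genes around PPP1R10 give a local comparison. PPP1R10 and MRPS18B, a mitochondrial ribosomal protein gene, start back to back with 596 bases between their annotated starts. At 217408_at, the probe set used for the gene, MRPS18B read 11.50, 11.52 and 11.39 in CA, against 11.53, 11.48 and 11.50 in DMSO, a log2 change of -0.031 (-0.17 to 0.11). At its other probe set all CA arrays were higher, with a change of 0.11 (-0.022 to 0.24). On the far side ABCF1, an ATPase that acts in translation initiation, had a change of 0.054 (-0.068 to 0.18). The outer neighbours GNL1, PRR3, ATAT1, a tubulin acetyltransferase, and C6orf136 had changes of 0.061, -0.11, 0.14 and -0.0041 at the probe sets used. The other probe sets of GNL1 gave -0.16 to 0.18 and that of PRR3 gave 0.26, with overlapping groups, so their direction depends on the probe set. In the gene fit limma called 0 of the 6 neighbours (adjusted p between 0.343 and 0.989), against 0.895% of all genes, and 1 had an unadjusted p under 0.05, against 11.6% of all genes.

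**Figure D3:**
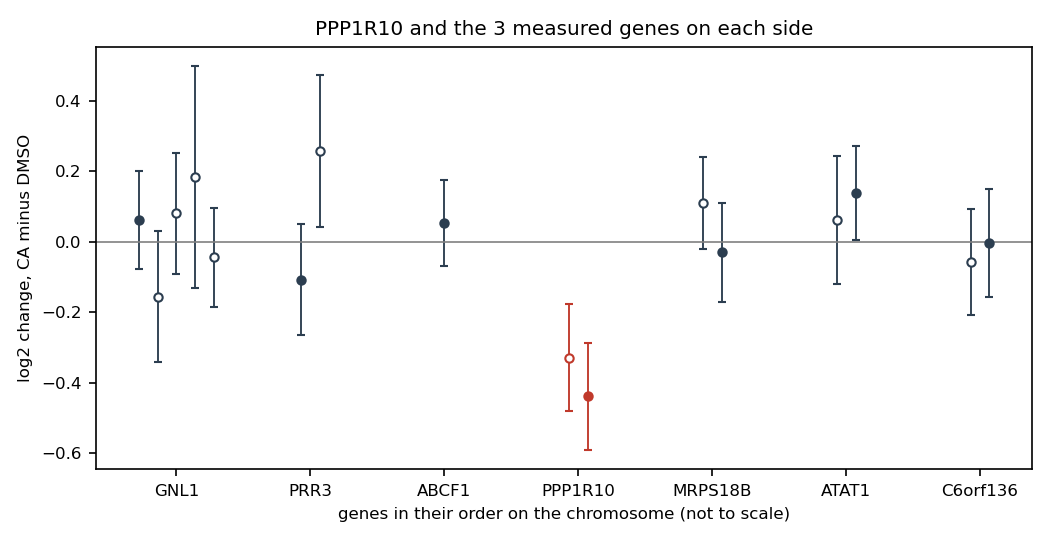
Log2 change, CA minus DMSO, for PPP1R10 (red) and the 3 measured genes on each side in their chromosomal order, 1 point per probe set with its 95% interval from limma; filled points are the probe sets used for the gene. PPP1R10 lies at -0.33 and -0.44, and the probe sets used for its 6 neighbours lie between -0.11 and 0.14.

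The profile of PPP1R10 over the 6 arrays was compared with that of every gene, as the root mean square difference of the log2 values after the DMSO mean of each gene was taken off. The closest was TXNIP, the thioredoxin-interacting protein, at 0.030, followed by RAB38, a small GTPase, at 0.042, SERTAD1, a CDK4-binding protein, at 0.073, FNDC7 at 0.077 and BEND5 at 0.082; the median over all genes was 0.33. TXNIP read 10.02, 10.05 and 10.15 in CA, against 10.50, 10.51 and 10.50 in DMSO. As with PPP1R10, its CA replicate 3 was the least lowered. RAB38, FNDC7 and BEND5 were dim, with DMSO means of 4.49, 5.37 and 4.83. The 8 other members were at 0.24 (PPP1CA) to 0.38 (TOX4), and PPP1CA, the nearest of them, ranked 1921 among the genes. This likeness was picked from 6 arrays that fall into 2 groups and shows little beyond a difference of like size.

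**Figure D4:**
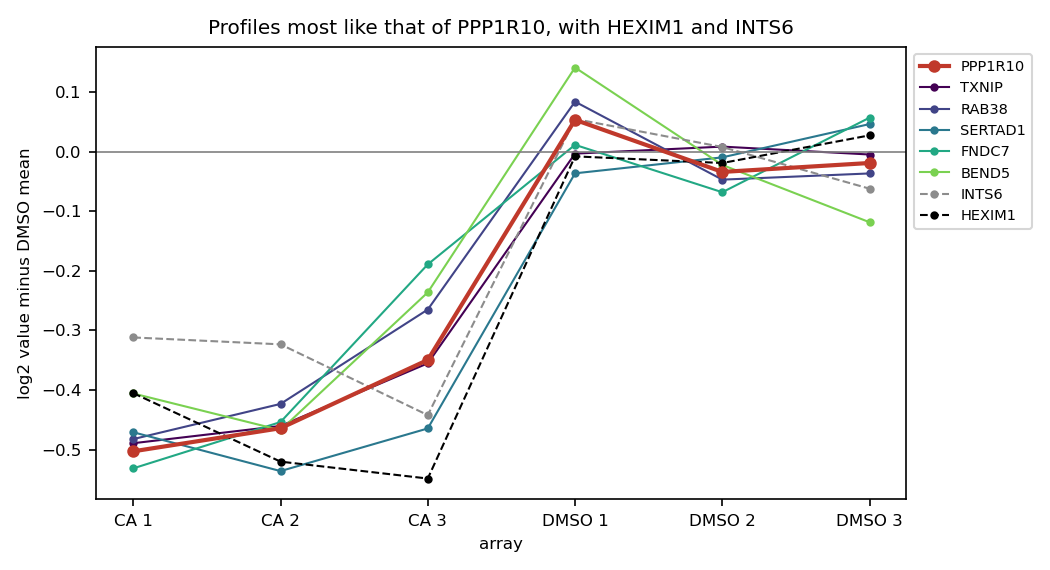
Log2 value minus the DMSO mean on each array for PPP1R10 (thick red), the 5 genes with the closest profile (solid) and HEXIM1 and INTS6 (dashed), with lines joining the arrays of a gene. All 8 lie below their DMSO mean in the 3 CA arrays.

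The wider pathway was described from 7 lists of 156 other genes, of which 148 were measured. In the gene fit, limma with Benjamini-Hochberg adjustment called 1 of them, HEXIM1, which fell, and 0 that rose, or 0.676% against 0.895% of all genes; without adjustment 12 were higher at p under 0.05, where 7.09% of all genes were, and 8 were lower, where 4.50% were. The 2 directions together came to 13.5% of the list genes and 11.6% of all genes. Their median log2 change was -0.0015, and that of all genes was 0.0037. One list gene, HEXIM1, had a larger fall than PPP1R10, which was itself picked for its fall. The lists were chosen with earlier results of these data known, so their counts and shares are a description.

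HEXIM1 encodes the inhibitor that, with 7SK RNA, keeps P-TEFb and its kinase CDK9 inactive. Its log2 values were 8.11, 8.0 and 7.97 in CA, against 8.51, 8.50 and 8.55 in DMSO at 202814_s_at, a change in the gene fit of -0.49 (-0.62 to -0.36, limma adjusted p = 0.0178). The other HEXIM1 probe sets gave -0.63 and -0.13. The -0.13 came from a dim probe set with overlapping groups, where the means were 3.79 in CA and 3.92 in DMSO. In the gene fit HEXIM1 passed without CA replicate 3 but not without any other single array (CA replicates 1 and 2, DMSO replicates 1 to 3). HEXIM1 was the 1 call among 13 kinases of SPT5 or the polymerase and their 7SK regulators, against 0.895% of all genes. Since this list was chosen with earlier results of these data known, the share says nothing about HEXIM1. Without adjustment 0 of the 13 were higher and 2 lower, against 7.09% and 4.50% of all genes. The second was MEPCE, the capping enzyme of 7SK RNA, named after its values were seen, with 9.07, 8.99 and 8.95 in CA, against 9.34, 9.34 and 9.25 in DMSO (log2 change -0.31, limma adjusted p = 0.0765).

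Of 15 Integrator subunits, which cleave nascent RNA early in genes and bring a phosphatase to the polymerase, limma called 0, against 0.895% of all genes. Before adjustment 2 were higher and 1 lower, against 7.09% and 4.50% of all genes. INTS6, the subunit that links Integrator to protein phosphatase 2A, read 9.94, 9.93 and 9.81 in CA, against 10.31, 10.26 and 10.19 in DMSO, a log2 change of -0.36 (-0.50 to -0.22, limma adjusted p = 0.0582). Its 3 CA arrays lay below all DMSO arrays, and its other 3 probe sets had changes of -0.15, -0.39 and -0.27. The -0.15 came from a dim probe set with overlapping groups, where the means were 3.21 in CA and 3.36 in DMSO. INTS1 and INTS12 had changes of 0.14 and 0.10 (limma adjusted p = 0.284 and 0.423). The second INTS1 probe set gave -0.13, opposite in sign, with overlapping groups.

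Of 45 other PP1 regulatory subunits, limma called 0, against 0.895% of all genes. Without adjustment 6 were higher and 1 lower, against 7.09% and 4.50% of all genes. MKI67, the Ki-67 protein that brings PP1 to mitotic chromosomes, read 10.04, 10.07 and 10.13 in CA, against 9.65, 9.74 and 9.81 in DMSO (log2 change 0.35, limma adjusted p = 0.0635). Its other 3 probe sets gave 0.088, 0.31 and 0.15. CNST, which encodes consortin, and PPP1R35, a centriole protein, had changes of 0.26 and 0.24 (limma adjusted p = 0.183 and 0.0935), and the other CNST probe sets gave 0.067, 0.39 and 0.27. The lowest change among the 45 was -0.18.

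Of 29 cleavage, polyadenylation and termination factors, limma called 0, against 0.895% of all genes. Without adjustment 1 was higher and 3 lower, against 7.09% and 4.50% of all genes. RPRD1A, which binds the tail of the polymerase, and PCF11, a cleavage factor needed for termination, had log2 changes of -0.19 and -0.19 (limma adjusted p = 0.309 and 0.399), and CSTF2, a subunit of the cleavage stimulation factor, had 0.16 (0.410). The other RPRD1A probe sets gave -0.20 to 0.048. The second probe set of PCF11 gave -0.073 and that of CSTF2 gave -0.10, opposite in sign to the one used.

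Of 17 elongation factors, limma called 0, against 0.895% of all genes. Without adjustment 2 were higher and 0 lower, against 7.09% and 4.50% of all genes. LEO1 of the PAF1 complex, IWS1, a partner of SPT6, and NELFCD of the pausing factor NELF had changes of 0.12, 0.099 and 0.066 (limma adjusted p = 0.430, 0.422 and 0.618). Changes of the 17 ran from -0.22, in a gene whose groups overlapped, to 0.12, with a median of 0.021. The other IWS1 probe sets gave 0.055 and -0.42, with overlapping groups. Of 18 other phosphatases of the polymerase or the nucleus, limma called 0, with 1 higher and 1 lower without adjustment, shares to be read against the same backgrounds. Their changes ran from -0.37, in a gene whose groups overlapped, to 0.25, with a median of -0.051. RPAP2, a phosphatase of the polymerase tail, had a change of 0.25, while SSU72, another, and PPP2CA, the catalytic subunit of protein phosphatase 2A, had -0.12 and -0.062 (limma adjusted p = 0.0932, 0.421 and 0.631). SSU72 had no single direction: its other probe sets gave 0.22, where all CA arrays were higher, and -0.16 and -0.0075, where the groups overlapped. The second RPAP2 probe set gave 0.11, and the other PPP2CA probe sets gave 0.013 and -0.14. Of 11 partners of WDR82 in the SET1 and restrictor complexes, limma called 0, with 0 at an unadjusted p under 0.05, against 0.895% and 11.6% of all genes. SETD1B, a SET1 methyltransferase, had a change of -0.058 (limma adjusted p = 0.655).

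**Figure D5:**
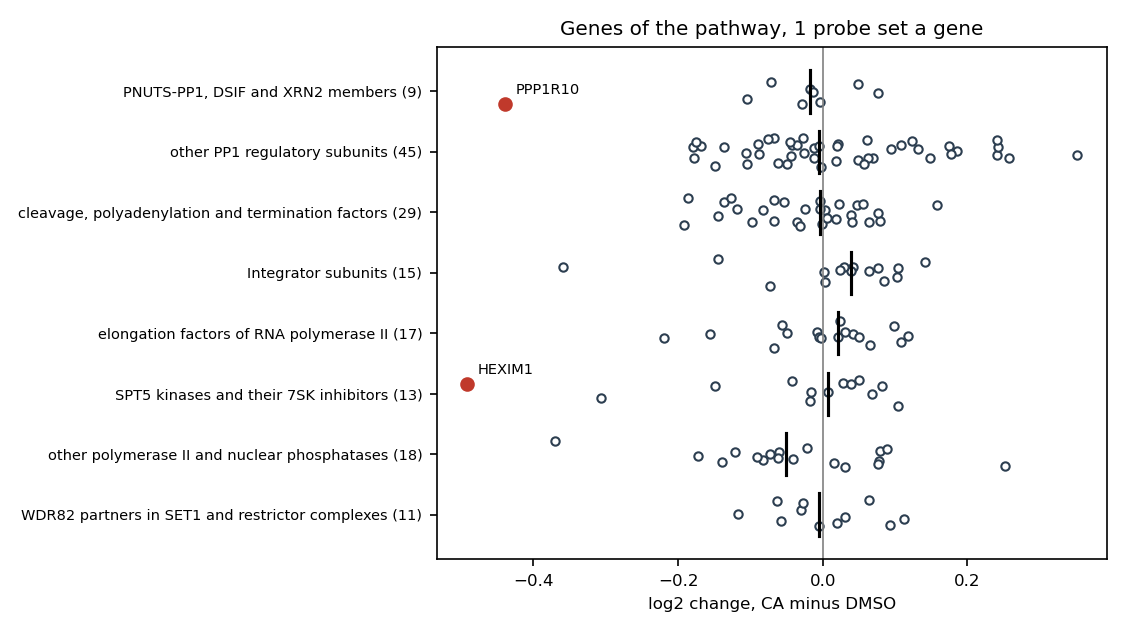
Log2 change, CA minus DMSO, of each measured gene of the 9 members and of the 7 lists of other pathway genes, 1 probe set a gene, with the number of genes in brackets and a bar at the median of each list. Filled red points had a limma adjusted p under 0.05 over all genes: PPP1R10 at -0.44, picked from this comparison, and HEXIM1 at -0.49. The list of HEXIM1 was chosen with earlier results of these data known.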

How the data were processed

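The deposited table holds log2 intensities of probe sets from RMA (affy), per the submitters' processing notes, whose versions are not given here. RMA subtracts background, forces the arrays to the same quantiles and fits 1 value a probe set, so a shift shared by all genes is lost and dim differences are compressed. Per the labels' protocols, labelling began at the 3′ end of transcripts and either of 2 reagents isolated the RNA; no label ties a reagent to a sample.

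From the deposited log2 values, 62 of 54675 probe sets were left out as Affymetrix controls. Symbols came from the platform annotation: 41091 probe sets had 1, 1801 several and 11721 none. Of those with 1, 41037 matched a RefSeq table of GRCh38.p14 by gene number, with 0 symbols updated. Sample titles gave the groups and replicate numbers. The comparison of CA with DMSO used limma 3.58.1 in R 4.3.3 (lmFit, eBayes, no block), two-sided, over all 54613 probe sets for the members and over 19775 genes, each by its brightest probe set with 1 symbol, for the lists. A feature was called at a Benjamini-Hochberg adjusted p under 0.05. An exact permutation test of 3 against 3 cannot go below 0.1. The number of arrays limits precision: log2 changes had a median SE of 0.083 over probe sets and 0.071 over genes.

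The members, lists and rules for named genes were chosen with earlier results of these data known. Named were all members, of each list up to 4 called genes or otherwise the 3 largest changes without overlap, 3 neighbours on each side of PPP1R10 and the 5 closest profiles. Genes with no probe set of 1 symbol, such as PPP1R8, WDR33, NELFA and NELFE, were not analysed here. The steps were tested on simulated data with independent errors, no replicate effect and no outlying array. There the share of changes called was checked only at a log2 change of 1 in size, larger than at any member. Alternatives were a replicate block, an intensity trend with a robust prior, array weights, median centring, cyclic loess, 2 filters of probe sets, the mean of a gene's probe sets and each array left out.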

Additional observations from a re-analysis of the deposited data

How the results depend on the processing

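The log2 change of PPP1R10 lay between -0.47 and -0.38 over 7 alternatives, and between -0.48 and -0.41 with 1 array left out. The replicate block, the trend with a robust prior and the filter of dim probe sets cannot alter this difference of means, and each gave -0.44 again. In the gene fit PPP1R10 passed limma's threshold under 6 of the 7 alternatives, the exception being the replicate block, and under 1 of the 6 fits without an array. Both its probe sets are of the _s_at kind, so it has no value without _x_at, _s_at and _a_at probe sets. In the fit over all probe sets, 201703_s_at passed under 3 of the 6 alternatives that held it, and 201702_s_at under 2. Neither passed with any 1 array left out.

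Counts of calls moved more. Over all probe sets the 120 calls became 1 with the replicate block, 740 with the intensity trend and robust prior, 196 with array weights, 398 without dim probe sets and 47 without _x_at, _s_at and _a_at probe sets, and 0 to 6 with 1 array left out. Over genes the 177 calls became 6 with the replicate block, 546 with the trend, 351 without dim probe sets and 74 without _x_at, _s_at and _a_at probe sets. Without CA replicates 1, 2 and 3 they were 6, 9 and 112, and without DMSO replicates 1, 2 and 3 they were 5, 8 and 1. Of the other pathway genes 0 passed with the replicate block, 8 with the trend (5 higher, 3 lower) and 2 with array weights (0 higher, 2 lower). With cyclic loess 3 passed (0 higher, 3 lower), and without dim probe sets 7 (4 higher, 3 lower). Without _x_at, _s_at and _a_at probe sets 0 passed, and with 1 array left out 0 to 1. PP1 regulatory subunits made up 4 of the higher calls with the trend and 3 of those without dim probe sets. INTS6 passed under 4 of 14 alternatives. The causes were not tested, beyond fewer arrays or features where the alternative removes them. The deviations of same-numbered samples from their group means correlated at 0.041, 0.22 and 0.25 for replicates 1, 2 and 3. Of the samples, 2 of 3 CA and 3 of 3 DMSO correlated best with their own number. Deviations from the mean of a group depend on each other, so these matches are not independent. The labels do not say whether equal numbers mark a pair, so the main fit had no block, and a shared replicate effect remains possible. With the replicate block PPP1R10 had a limma adjusted p of 0.141 in the gene fit, and HEXIM1 did not pass.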
